A study of Drosophila melanogaster with 12 samples.

Results

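The annotated transposable element insertions of the fly genome were read here as 5416 of the 23882 features of a count table from Kc 167 cells, chosen by their identifier, which begins with FBti. The smaller set of well counted insertions given below was selected on the counts themselves, at least 10 in 3 or more libraries, and its counts are a description. Kc 167 is an established Drosophila melanogaster line of embryonic origin with features of plasmatocytes, the phagocytic blood cells of the fly. Cells received double-stranded RNA (dsRNA) for 5 days against yellow, the control, or against gcn5, elp3 or nej, with 3 libraries of polyadenylated RNA in each of the 4 groups and 12 in all. Yellow makes a cuticle pigmentation protein, Gcn5 and nej (the fly CBP) are histone acetyltransferases, and Elp3 is the catalytic subunit of Elongator. The labels name no transgene or mutation, and the control cells received dsRNA like the others. Libraries held 19102102 to 23198850 counts. Nothing in the labels says whether the 3 libraries of a group came from separate cultures, so that p-values measure the spread between these libraries, which may be technical.

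The counts of the targeted genes were looked at first. Gcn5 stood at 138 ± 12.9 CPM (counts scaled to a library of 1000000; SD, n = 3) in the yellow libraries and at 40.8 ± 11.4 CPM in the dGcn5 libraries. Elp3 stood at 52.5 ± 5.28 CPM in the yellow libraries and at 3195 ± 1136 CPM in the group labelled Elp3. For nej the lowest library of its own group held 6011 counts and the highest 67087, against 1059 to 4658 in the yellow libraries. Both are higher where a knockdown was labelled, and these groups are named by their labels throughout. All 10 markers of plasmatocytes on the list used were detected, from Sr-CI at 3.16 CPM and NimC1 at 10.9 CPM to Hml at 1952 CPM. Of 6 markers of other cell types, the neuronal gene elav stood at 10.2 CPM, the germ-line genes nos and vas at 3.76 and 0.762 CPM, the muscle gene Mhc at 1.17 CPM and the fat body gene Lsp1alpha at 0.0159 CPM, while tj, a marker of ovarian somatic cells, had 0 counts in every library. These levels are not scaled to gene length.

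Transposable elements are DNA segments that can move or copy themselves within a genome. LTR retrotransposons are transcribed between long terminal repeats and copied back into DNA through an RNA intermediate, non-LTR retrotransposons do so without such repeats, and DNA elements move as DNA. In flies they are held in check by small RNAs of the piRNA and siRNA pathways and by heterochromatin, in which many of their old and broken copies lie. The insertions counted here are those of the reference genome, build BDGP6.32. Which of them Kc cells carry was not measured, and reads from a copy at another place in the Kc genome would be counted at the reference copies that they match. No genome sequence was used here, so that no insertion's sequence is given.

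Of the 5416 insertions, 2378 had 0 counts in all libraries and 3038 had a count in at least 1. A level of at least 10 counts in 3 or more libraries was reached by 976 insertions. Among these, 469 reached 10 counts in all 12 libraries, 49 did so in exactly 3 libraries, and 2 passed only through the 3 libraries of a single group. The third highest count was exactly 10 for 31 insertions, just inside the threshold. It was exactly 9 for 38 insertions, just outside. The Juan insertion FBti0019118, a non-LTR retrotransposon inside the threshold, ranged from 0 to 15 counts over the libraries, and the Rt1b insertion FBti0018937 outside it ranged from 3 to 18. Insertions on either side of the threshold thus overlapped in counts. A further 155 transposable element rows with another kind of identifier fell outside the rule and held 0.544% of counts in the yellow libraries on average.

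Insertions without a base of their own had no counts. On the strand of the insertion, 116 insertions lay wholly within annotated exons of genes, and all of them had 0 counts in every library. A further 279 lay wholly within other transposable element rows of the same strand, 2 of them within both, and these also had 0 counts in every library. Together with the exon group this made 393 insertions without a base of their own on their strand, none detected. Of the 5023 insertions with at least 1 free base, 3038 were detected, or 60.5%.

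**Figure D1:**
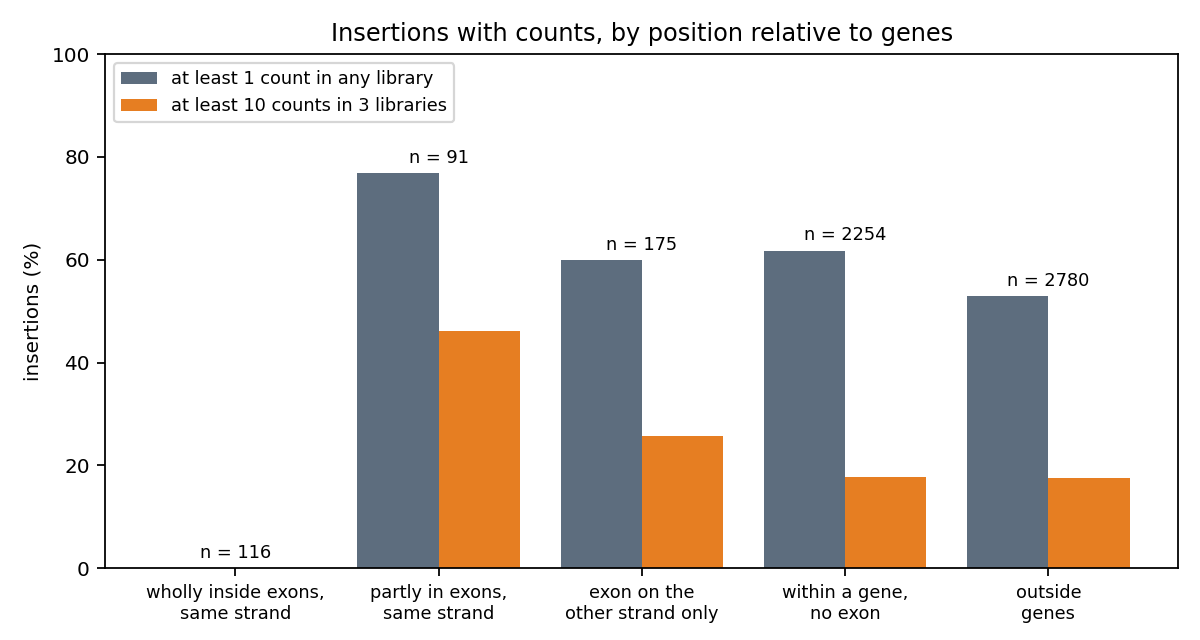
Share of insertions (%, y axis) with at least 1 count in any library (grey) and with at least 10 counts in 3 libraries (orange), by position relative to the exons and spans of genes (x axis). No bar stands over the 116 insertions wholly inside exons on their strand, and the highest bars stand over the 91 that share only a part with such exons.

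Many of the genes around these rows were well counted. Of the 116, 59 lay in exons of 45 genes that averaged at least 500 counts per library, with a median of 2590. The highest was eIF4A, which makes a helicase of translation initiation. It held 35845 to 65624 counts per library, while the blood insertion FBti0063268, a fragment of 37 bp within its exon at chromosome 2L 5985132 to 5985168, had 0. The same was seen for the HMS-Beagle insertion FBti0060479, 261 bp in an exon of ctp, a dynein light chain gene with 7379 to 14435 counts. The counts therefore show that a read in bases annotated to a gene and an insertion on the same strand was given to the gene only or to neither, and a 0 at such a row cannot be read as absence of transcription.

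The exons of nej hold 2 insertions. The TART-A insertion FBti0063327 covers 422 bp at chromosome X 9678736 to 9679157, and the TART-B insertion FBti0063331 covers 486 bp at 9678154 to 9678639. Both are wholly exonic and on the strand of nej. Their counts were 0 in all 12 libraries, including nej replicate 2, in which nej reached 67087 counts. No insertion shared an exonic base with Gcn5, Elp3 or yellow.

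Exons on the other strand did not blank an insertion in this way. Of 29 insertions wholly within opposite-strand exons of genes with at least 500 counts, 12 had counts, at most 59.2 per library on average. In all, 382 insertions shared at least 1 base with an exon on either strand, 207 of them on their own strand and 186 on the other, with some on both. Of the 91 that shared only part of their length with a same-strand exon, 70 were detected and 42 reached 10 counts in 3 libraries. The best counted was the diver insertion FBti0019307, with 68 exonic bases in Madm. It is followed by the Doc insertion FBti0019430, 4516 bp of a non-LTR retrotransposon at chromosome 3R 25324412 to 25328927, of which 5 bp are exonic in CHKov1. It averaged 107 CPM, with counts of 3294, 2804 and 720 in the yellow libraries, 1203, 986 and 2912 in the dGcn5 libraries, 388, 2513 and 3425 in those labelled Elp3 and 2476, 3449 and 2649 in those labelled nej. Low counts stood in yellow replicate 3, dGcn5 replicates 1 and 2 and Elp3 replicate 1, and all groups overlapped.

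Most of the signal came from insertions with no exonic base. The 2254 insertions inside gene spans but outside exons gave 42.3% of the CPM summed over all insertions, and the 2780 outside gene spans gave 52.8%. The flam locus, which in ovarian somatic cells is a source of piRNAs against transposable elements, was annotated over 46 insertions, 21 of which shared an exonic base with it, and 8 of the 21 had counts. The flam transcript itself held only 6 to 26 counts per library.

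Longer insertions were counted more often. Among insertions without any base shared on their strand, 31.4% of those up to 100 bp were detected, 50.6% of those from there to 500 bp, 75.2% of those from 500 to 1000 bp, 89.4% of those from 1000 to 3000 bp and 95.8% of the longer ones. The 601 longest, over 3000 bp, gave 83.9% of the CPM of all insertions. Insertions in heterochromatin, taken here as chromosome 4 and the regions beyond fixed points near the centromeres (above 22 Mb on 2L and 23 Mb on 3L, below 5.4 Mb on 2R and 4.2 Mb on 3R, and the proximal end of X), gave 8.31% of the CPM although they are 2198 of the 5416. Of these, 14.8% reached 10 counts in 3 libraries, against 20.2% of the 3218 elsewhere. Among unshared insertions over 3000 bp the shares were 67.3% and 82.7%. Chromosome 4, largely heterochromatic, held 565 insertions, of which 61 reached the threshold.

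LTR retrotransposons made up most of the counts. The class held 92.2% of the CPM with 1311 insertions, of which 547 reached 10 counts in 3 libraries. Non-LTR retrotransposons held 5.33% with 1049 insertions and 263 above the threshold. DNA elements, including the short and numerous INE-1 copies, held 2.06% with 3044 insertions and 163 above it. Families were read from the insertion names, which gave 127 families. Of these, 3 families gave 50% of the CPM and 19 gave 90%, and 14 single insertions gave 50% by themselves.

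The 3S18 family, an LTR retrotransposon of the BEL group, alone gave 36.2% of the CPM from 16 insertions. Its summed level was 7540 ± 2445 CPM in the yellow libraries, 6832 ± 1640 in the dGcn5 libraries, 6286 ± 2335 in those labelled Elp3 and 9011 ± 2630 in those labelled nej (SD, n = 3 each). Single libraries ran from 3987 CPM in the first library labelled Elp3 to 11910 CPM in nej replicate 2, and the groups overlapped. The diver family followed with 9.30% of the CPM, mdg3 with 9.25% and copia with 8.50%, all of them LTR retrotransposons. The highest non-LTR family was F, at 216 CPM, and HeT-A, which with TART elongates fly telomeres, stood at 182 CPM. The telomeric elements HeT-A, HeT-Tag and TART together measured 198 ± 23.7 CPM in the yellow libraries, 216 ± 35.7 in the dGcn5 libraries, 222 ± 58.3 with the Elp3 label and 206 ± 25.7 with the nej label. All groups overlapped. The most numerous DNA element, INE-1, reached 79.5 CPM over 2234 insertions.

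**Figure D2:**
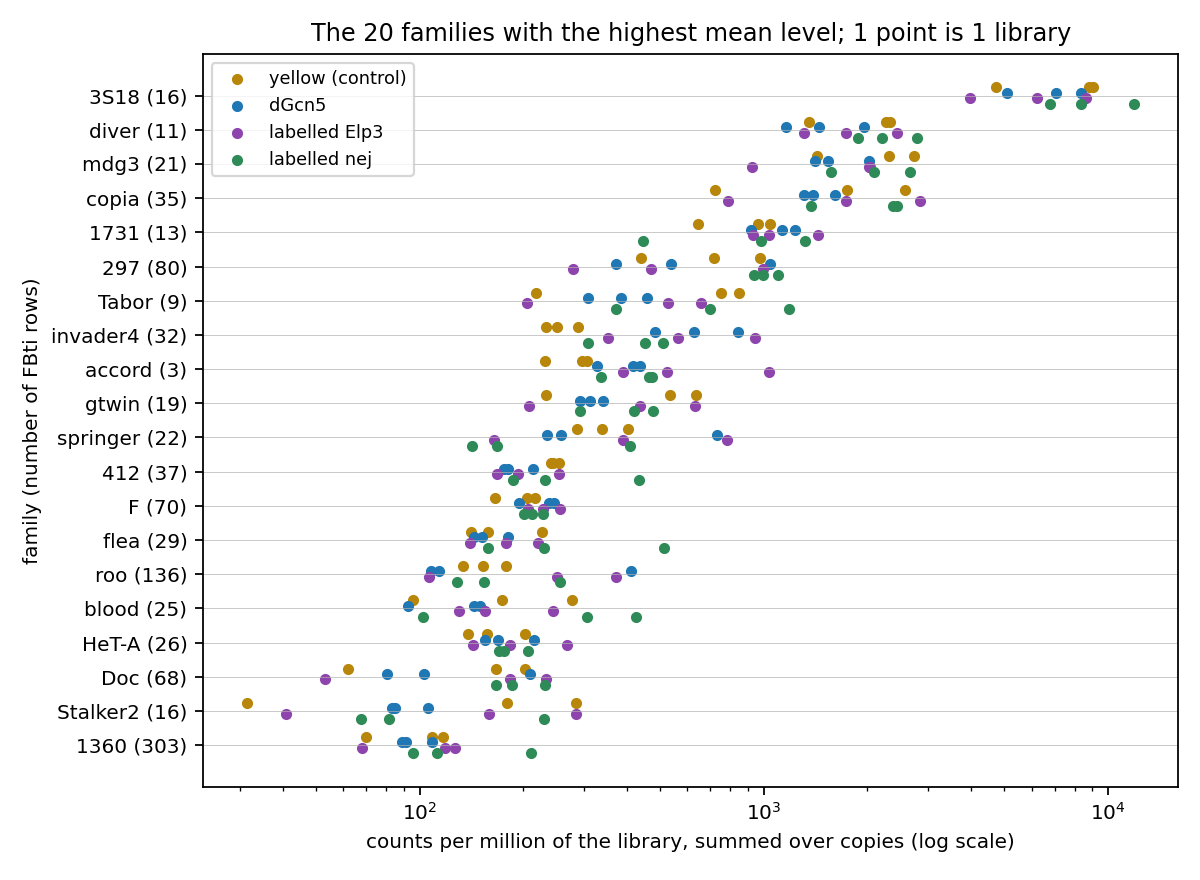
Level of the 20 transposable element families with the highest mean (y axis, with the number of insertions of each) in CPM summed over the insertions of the family, on a log scale (x axis). Each point is 1 of the 12 libraries, coloured by group. The 3S18 points lie between 3987 and 11910 CPM, above those of every other family, and the yellow points of invader4 lie to the left of all other groups.

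Many families were highest or lowest in the same few libraries, but others were not. Of 62 families with at least 10 CPM on average, 27 were highest in nej replicate 2, 12 in Elp3 replicate 2 and 7 in Elp3 replicate 3, while 18 were lowest in yellow replicate 3 and 16 in Elp3 replicate 1. The highest library exceeded the lowest by a median of 3.21 times. The flea family stood at 513 CPM in nej replicate 2 and at 140 to 229 CPM in all other libraries. The springer family was highest in dGcn5 replicate 3 and Elp3 replicate 3, at 731 and 781 CPM, and lowest in nej replicate 2, at 142 CPM. Families of one class thus peaked in different libraries.

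The counts of single copies within a family were not independent. The 3 copies of mdg3 of 5520 bp each, FBti0019047 and FBti0019069 on X and FBti0019366 on 3R, held 6094, 6095 and 6092 counts in yellow replicate 1. Over the 12 libraries they never differed by more than 11 counts. A group of 4 diver copies of 6133 bp, FBti0019129 on 2L and FBti0019307, FBti0019387 and FBti0019467 on 3R, differed by at most 37 counts in levels of 2655 to 7190. Copies on different chromosome arms thus carried nearly one and the same count, as arises when reads that match several copies are counted at each of them. Among the 69 insertions with at least 1000 counts on average, 27 had another copy within 10% in every library and 7 had one within 1%. A sum over a family, a class or all insertions can therefore count a read more than once. The level of one of several alike insertions cannot be told apart from that of its copies.

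**Figure D3:**
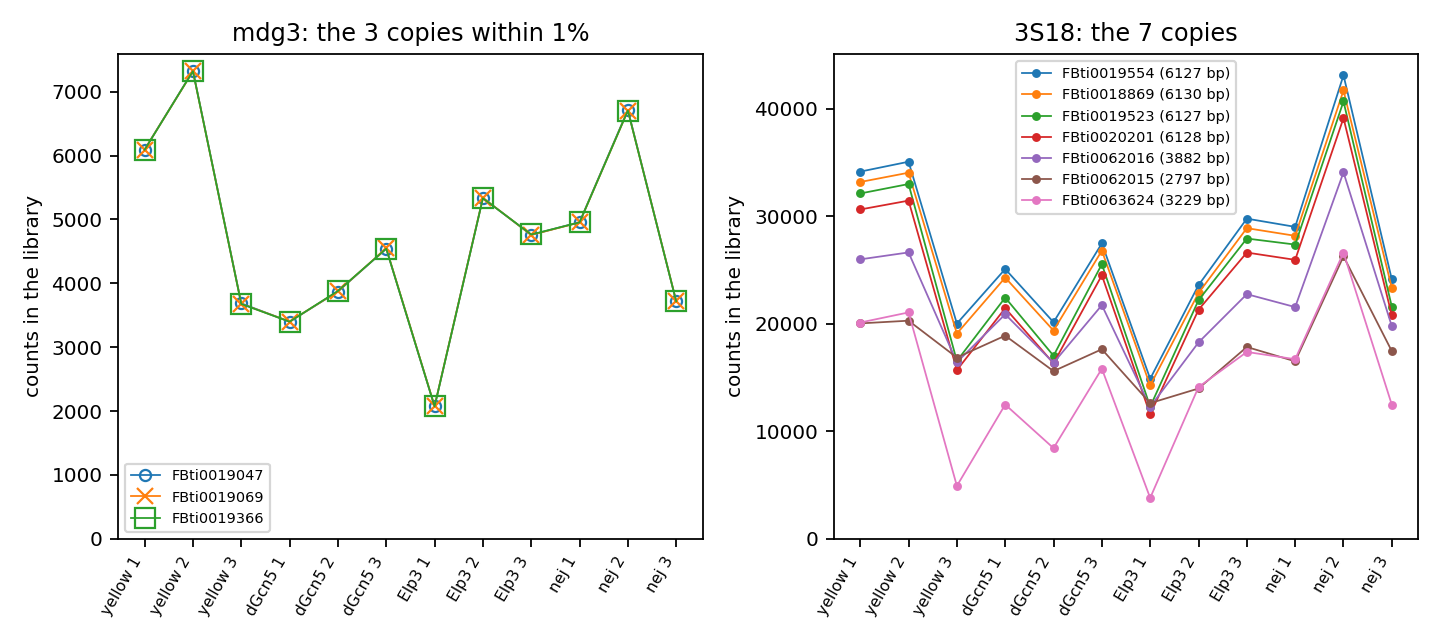
Counts per library (y axis) of 3 mdg3 insertions (left) and of the 7 3S18 insertions with the highest counts (right) in the 12 libraries (x axis). The 3 mdg3 lines coincide, and the 3S18 lines of similar length run in parallel, with nej replicate 2 highest and Elp3 replicate 1 lowest in each of the 7.

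The most counted single insertion was the 3S18 insertion FBti0019554, 6127 bp at chromosome X 3415073 to 3421199, within CG12535 and on its strand but outside its exons. Its counts were 34154, 35074 and 20018 in the yellow libraries, 25091, 20143 and 27479 in the dGcn5 libraries, 14881, 23594 and 29780 in those labelled Elp3 and 29015, 43119 and 24129 in those labelled nej. CG12535 itself averaged 261 counts. Of the 16 3S18 insertions 7 reached the threshold. The copies FBti0018869, FBti0019523 and FBti0020201, of 6127 to 6130 bp, were likewise highest in nej replicate 2 and lowest in Elp3 replicate 1. The 3 others, FBti0062016, FBti0062015 and FBti0063624, are shorter rows that lie near each other on chromosome 3L, between 5104538 and 5122056. Of these, FBti0063624 varied most, from 3796 to 26620 counts.

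Some families rested on a single row. FBti0060280, a copia-like LTR retrotransposon of 4648 bp at chromosome 2R 6346949 to 6351596 and outside genes, held 99.7% of its family, which has 13 insertions and gave 4.91% of the CPM. Its counts were 23074, 21326 and 14868 in the yellow libraries, 25406, 24963 and 17481 in the dGcn5 libraries, 18968, 31360 and 20452 in those labelled Elp3, and 26115, 9332 and 20213 in those labelled nej. The library with the lowest count was nej replicate 2, in which 27 of the 62 families compared above were highest. The gtwin insertion FBti0019538, in the spans of Mur2B and br, held 97.9% of its family, and FBti0018911 held 82.9% of F. The accord insertion FBti0018951, in the span of CG17574 on the other strand, held nearly all of accord. In roo, by contrast, 111 of 136 insertions reached the threshold, but its 108 copies of at least 3000 bp had a median of only 26.9 counts.

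By counts per kb, short rows joined the leading ones. The TART-A insertion FBti0062662, 309 bp on chromosome 4 at 1272188 to 1272496, averaged 1613 counts per kb. It held 519, 445 and 1038 counts in the yellow libraries and 475, 42 and 506 in those labelled nej, with 299 to 708 in the others. The count of 42 in nej replicate 2 stands apart from all others. The mdg3 insertion FBti0019817, 242 bp on chromosome 2L, averaged 1290 counts per kb and was lowest in nej replicate 1, with 117 counts.

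The insertions together held 2.30%, 2.44% and 1.34% of all counts in the yellow libraries. In the dGcn5 libraries they held 1.79%, 1.57% and 2.20%. The libraries labelled Elp3 gave 1.23%, 2.24% and 2.36%, and those labelled nej 2.32%, 2.93% and 1.88%. The spread within a group was as large as the distance between groups, and every group overlapped the control. Means were 2.03% ± 0.600 for yellow, 1.85% ± 0.319 for dGcn5, 1.95% ± 0.620 for the libraries labelled Elp3 and 2.37% ± 0.526 for those labelled nej (SD, n = 3 each). These shares may count a read at several copies. With only the highest copy of each family the means were 0.565% for yellow, 0.556% for dGcn5, 0.614% for Elp3 and 0.655% for nej. That setting also leaves out reads particular to other copies.

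**Figure D4:**
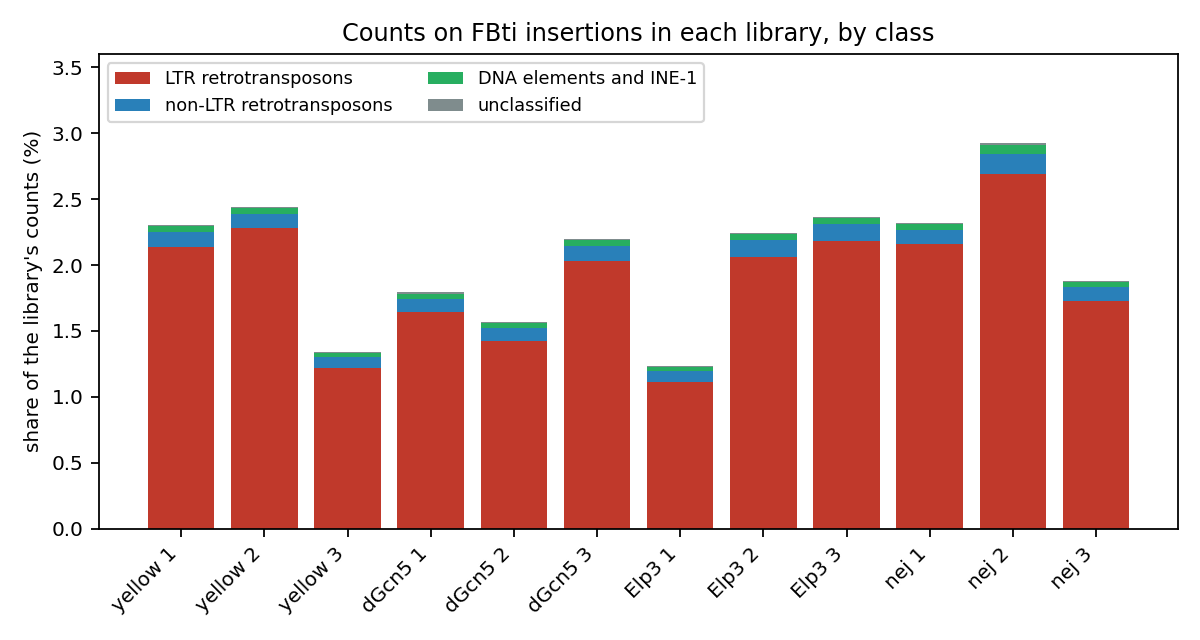
Share of each library's counts that fell on the 5416 insertions (%, y axis), stacked by class of element, in the 12 libraries (x axis). LTR retrotransposons fill most of every bar, and the total runs from 1.23% in Elp3 replicate 1 to 2.93% in nej replicate 2.

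None of the 3 differences from yellow exceeded the spread between libraries. The dGcn5 mean lay 0.175 percentage points below yellow (exact permutation test, two-sided, p = 0.7), and that of the libraries labelled Elp3 0.081 points below (p = 0.6, exact). The libraries labelled nej lay 0.347 points above (p = 0.5, exact). After adjustment over the 3 comparisons each p was 0.7, and 3 libraries against 3 cannot give a p under 0.1. The dGcn5 difference turned to +0.032 without yellow replicate 2. The Elp3 difference turned to +0.056, +0.126 or +0.275 without yellow replicate 1, yellow replicate 2 or Elp3 replicate 1, and to +0.044 without the 3S18 family. The nej difference was +0.0032 without yellow replicate 3 and +0.071 without nej replicate 2.

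The share of a library moved with how that library represented long transcripts. For each library the deviation from the mean over libraries was set against feature length, over the features that are not insertions. The slope, in log2 units per doubling of length, was 0.16, 0.17 and -0.39 in the yellow libraries, -0.13, -0.23 and 0.047 in the dGcn5 libraries, -0.40, 0.17 and 0.15 in those labelled Elp3 and 0.22, 0.26 and -0.034 in those labelled nej. The 6 libraries with the lowest share were the 6 with the lowest slope, in the same order, and nej replicate 2 was highest in both. The part of length representation in the share of insertions was not tested.

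Single insertions were tested in the fit of the whole table by edgeR (quasi-likelihood), and p-values were adjusted over all features by Benjamini-Hochberg. No insertion was called at an adjusted p under 0.05 in any of the 3 comparisons, out of 812 tested for dGcn5, 848 for the libraries labelled Elp3 and 833 for those labelled nej. Over all features the share called was 0% for dGcn5, 0.0101% for Elp3 and 0% for nej. Of the targeted genes, edgeR called only Elp3 in its own group (adjusted p = 0.0136). It did not call Gcn5 in dGcn5 (log2 fold change -1.78, adjusted p = 0.421), which DESeq2 did (adjusted p = 1.19e-05). The same held for nej in its group (adjusted p = 0.968 by edgeR and 0.0117 by DESeq2). A missing edgeR call therefore does not show that a level was unchanged. At an unadjusted p under 0.05 there were 25 insertions for dGcn5 (3.08%, against 3.67% of all features), 31 for Elp3 (3.66% against 3.86%) and 26 for nej (3.12% against 3.65%). These shares lay near those of all features. DESeq2 called 4 insertions for dGcn5, all higher, 1 for Elp3 and 0 for nej, against 0.482%, 0.158% and 0.395% of all features. The 4 are 0.418% of the insertions it tested. The 95% interval of the log2 fold change of an insertion reached a median of 1.28 to either side for dGcn5. It reached 1.36 for each of the other comparisons. Smaller changes were mostly not detectable one by one. These intervals are not adjusted over features, and some larger changes, such as that of Gcn5, were not called by edgeR either.

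The unadjusted numbers moved with single libraries. For dGcn5 the 25 insertions became 113 without yellow replicate 3 and 90 without dGcn5 replicate 3, and 16 and 13 without yellow replicate 1 and dGcn5 replicate 1. For Elp3 the 31 became 64 and 58 without Elp3 replicates 1 and 3, and 16 and 14 without yellow replicate 1 and Elp3 replicate 2. For nej the 26 became 54 without nej replicate 3 and 12 without either yellow replicate 2 or 3, and 69 with the replicate number as a block. No insertion was called in any of these fits.

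Over the tested insertions the log2 fold changes were centred close to 0 for dGcn5, with a median of -0.07 against -0.03 for all features and 46.4% of insertions above 0 (47.1% of all features). For the libraries labelled Elp3 the median was 0.09 against -0.02, with 57.1% above 0 (48.1% of all features). For those labelled nej it was 0.26 against 0.01, with 68.1% of insertions above 0 and 50.7% of all features. These medians moved with single libraries. With 1 library left out the dGcn5 median lay between -0.34, without dGcn5 replicate 3, and 0.03, without dGcn5 replicate 1. The Elp3 median lay between -0.01, without Elp3 replicate 3, and 0.30, without Elp3 replicate 1. The nej median lay between 0.07, without nej replicate 2, and 0.38, without yellow replicate 1, and it was 0.15 when the length trend was removed. Unlike the slope above, the trend removed was fitted over all tested features, insertions included. Insertions of at least 3000 bp had a median of 0.28 in nej and the shorter ones 0.20, and with the length trend removed these were 0.08 and 0.40. In the dGcn5 comparison heterochromatic insertions had a median of 0.09 and the others -0.13, which became 0.02 and -0.03 with the length trend removed. DNA elements had a median of 0.18 and LTR retrotransposons -0.12 for dGcn5, which became 0.07 and -0.03.

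The 3 libraries of a group lay wholly above or below the 3 control libraries for 64 insertions in dGcn5 (7.88%, against 8.52% of all features tested). Of these, 43 were higher (5.30% against 5.42%) and 21 lower (2.59% against 3.11%). The number was 65 for Elp3 (7.67% against 8.75%), with 47 higher (5.54% against 4.92%) and 18 lower (2.12% against 3.83%). It was 72 for nej (8.64% against 9.88%), with 50 higher (6% against 4.36%) and 22 lower (2.64% against 5.52%). These totals lay near those of all features.

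The insertions with the lowest p in the dGcn5 comparison were copies of invader4, an LTR retrotransposon. The family has 32 insertions, 22 of which had 0 counts, and 8 reached the threshold. The copy FBti0019234, 3247 bp outside genes at chromosome 2L 21653247 to 21656493, held 2375, 2271 and 2847 counts in the yellow libraries and 6128, 8211 and 3994 in the dGcn5 libraries. With the Elp3 label it held 5363, 10378 and 3122 counts, and with the nej label 4668, 4014 and 3196. In CPM this was 111 ± 10.8 for yellow, 292 ± 80.2 for dGcn5, 298 ± 161 for Elp3 and 194 ± 40.4 for nej (SD, n = 3). All 9 other libraries lay above the 3 yellow ones, and the 3 comparisons share these yellow libraries. The log2 fold change in dGcn5 was 1.40 (95% interval 0.72 to 2.08), with an adjusted p of 0.636 by edgeR and 0.00804 by DESeq2. It was 1.44 for the Elp3 label and 0.82 for the nej label.

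**Figure D5:**
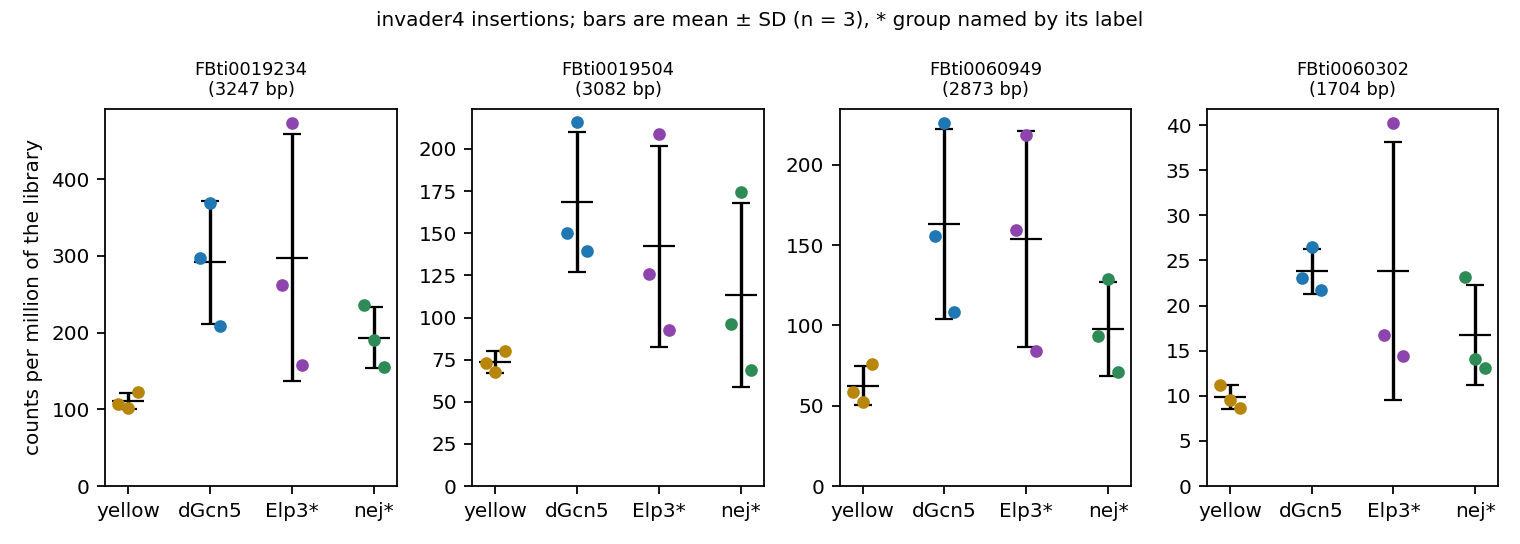
Level in CPM (y axis) of 4 invader4 insertions in the 4 groups (x axis), with 1 point per library and bars for the mean and SD (n = 3). The yellow points of each insertion lie below all dGcn5 points, and a single library labelled Elp3 lies highest or near highest in each panel.

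Of the 8 copies above the threshold, 2 were not lowest in the yellow libraries on average. FBti0020138 averaged 0.418 CPM in Elp3 against 0.561 CPM in yellow, and FBti0060345 averaged 0.167 CPM in dGcn5 against 0.193 CPM in yellow, both on few counts. Counts were also few at FBti0060639, with 13, 9 and 0 in yellow and 1, 1 and 27 in dGcn5. FBti0019386 held 8, 6 and 12 in yellow, 29, 35 and 14 in dGcn5 and 18, 10 and 1 with the nej label. Higher counts stood only at FBti0019234 and the copies that follow. FBti0060302, 1704 bp at chromosome 2L 21553739 to 21555442, held 250, 213 and 200 counts in the yellow libraries and 475, 590 and 416 in the dGcn5 libraries, a log2 fold change of 1.27 (adjusted p = 0.636 by edgeR and 0.00671 by DESeq2). It lies wholly under an insertion on the other strand. FBti0019504, on chromosome 4, and FBti0060949, near the centromere of 3L, had log2 fold changes of 1.19 and 1.39, and adjusted p of 0.716 and 0.984 by edgeR and 0.0313 and 0.0475 by DESeq2. These 4 copies are the 4 insertions called by DESeq2. Their counts may share reads, so they are not 4 independent observations. With any single library left out, the dGcn5 log2 fold change of FBti0019234 stayed between 1.20 and 1.62. The summed family gave 1.33 in dGcn5 (adjusted p = 0.693 by edgeR), 1.29 in Elp3 and 0.74 in nej.

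In the libraries labelled Elp3 the lowest p was that of the Doc insertion FBti0060540, a non-LTR retrotransposon of 4386 bp outside genes in the heterochromatin of 2L. It held 35, 40 and 18 counts in the yellow libraries, 189, 264 and 62 in those labelled Elp3, 36, 73 and 32 in the dGcn5 libraries and 37, 71 and 15 in those labelled nej. The Elp3 libraries lay above the yellow ones, and the other groups overlapped them. The log2 fold change was 2.59, with an adjusted p of 1 by edgeR and 0.0205 by DESeq2. The gypsy6 insertion FBti0062061, an LTR retrotransposon in the heterochromatin of 3L, held 9, 15 and 12 counts in the yellow libraries and 56, 97 and 23 in those labelled Elp3. The Doc3 insertion FBti0061900 went the other way, with 159, 150 and 62 counts in the yellow libraries and 24, 22 and 42 in those labelled Elp3, a log2 fold change of -1.95. It was also at 25, 18 and 59 counts in the dGcn5 libraries and 25, 66 and 40 in those labelled nej. Neither was called by edgeR or by DESeq2.

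In the libraries labelled nej the lowest p belonged to the invader4 insertion FBti0019234 and to copies of Ivk and roo. The Ivk insertion FBti0019678, a non-LTR retrotransposon of 5370 bp on chromosome X, held 17, 20 and 10 counts in the yellow libraries and 26, 134 and 45 in those labelled nej. The nej libraries lay above the yellow ones, nej replicate 2 far above. The log2 fold change was 2.25, and 1.32 to 2.62 with a library left out. The roo insertion FBti0059762, which shares 51 bp with an exon of CG12885, had 3, 4 and 4 counts against 12, 11 and 11. Its counts are close to the limit of the test. The yellow counts lay under the filter minimum of 10, so it entered this comparison only through the nej libraries. Its low p is therefore no support for a change. With the Elp3 label it held 1, 10 and 18 counts. The accord insertion FBti0018951 held 6816, 5150 and 6871 counts in the yellow libraries and 7978, 22692 and 10349 in those labelled Elp3, with log2 fold changes of 0.49 in dGcn5, 1.23 in Elp3 and 0.62 in nej, none of them called.

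Summed by family, 113 families were tested for dGcn5 and 112 in each of the other comparisons, and edgeR called none (0%, 0.0109% and 0% of all features). At an unadjusted p under 0.05 there were 4, 5 and 7 families, of which 3, 4 and 6 were higher. That is 3.54%, 4.46% and 6.25% of the families, against 3.8%, 4.02% and 3.68% of all features in the same fits. In dGcn5 13 families lay wholly above the control libraries (11.5%, against 5.5% of all features) and 1 wholly below (0.885% against 3.12%). In Elp3 9 lay above (8.04% against 4.9%) and 1 below (0.893% against 3.95%), and in nej 9 lay above (8.04% against 4.26%) and 5 below (4.46% against 5.77%). Families were not tested against the other features, and the comparisons share the yellow libraries. The families accord, gypsy6, invader4, Max and Doc3 are those named by an unadjusted p under 0.05 in more than 1 comparison, and Doc3 alone was lower. These repeats are therefore not independent.

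A list of 24 genes that silence transposable elements was set beside these results. All 24 were tested, none was called by edgeR, and at an unadjusted p under 0.05 there was only Hen1, a small RNA methyltransferase, in the Elp3 comparison, with a log2 fold change of -0.68. In that comparison 9 of 24 were higher, against 7 in dGcn5 and 13 in nej, and the medians were -0.12, -0.12 and 0.01 (-0.03, -0.02 and 0.01 over all features). AGO2, the effector of the siRNA pathway, was at 1764 CPM on average, and aub, a piRNA effector of the germ line, at 198 CPM. Piwi, the nuclear piRNA effector, was at 5.31 CPM. The list of 10 plasmatocyte markers had median log2 fold changes of -0.88, -0.81 and -0.87 in the 3 comparisons. edgeR called none of its genes and DESeq2 called 1, eater, a phagocytic receptor gene, lower in Elp3 (log2 fold change -1.88 and adjusted p = 1 by edgeR, adjusted p = 0.0138 by DESeq2). Summed over the list the libraries ran from 2549 to 6330 CPM in yellow, 1082 to 5643 in dGcn5, 956 to 4454 in Elp3 and 3371 to 3723 in nej, and no group's sum lay apart from the control. Gene by gene, 2, 1 and 4 of the 10 lay wholly below the control libraries in dGcn5, Elp3 and nej, and 0 above. Of all features 3.11%, 3.83% and 5.52% lay wholly below. The part of these genes in the results above was not tested.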

How the data were processed

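The authors filtered out ribosomal RNA after trimming, aligned with STAR to build BDGP6.32 and used featureCounts with an Ensembl gene annotation. The values they deposited are raw counts per feature, in whole numbers. The strand setting and the treatment of reads with several matches are not given in the sources used here, so statements on both rest on the counts. The library kit was stranded. The submitters' processing notes also name edgeR, DESeq2 and other tools.

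Libraries held 19102102 to 23198850 counts. Counting error was not compared with the spread between libraries, and in proportion it is largest for rows with few counts. CPM were scaled to the total over all features of the library. Names and families came from an Ensembl annotation and matched 5414 of 5416 insertions by identifier. Each dsRNA group was compared with yellow by the quasi-likelihood test of edgeR 4.0.16 (R 4.3.3), with TMM and its filter on low counts, fitted to the whole table and called at a Benjamini-Hochberg adjusted p under 0.05. DESeq2 1.42.0 was an alternative. Shares were compared with exact permutation tests (Python 3.11.15, scipy 1.17.1). The edgeR fit was also run on simulated counts, with a smaller spread between libraries than in these data and changes only in well counted features. That run therefore does not show how well changes in insertions are detected here. Library numbers shared across groups were checked by correlating deviations from the group means. For nej and yellow the same-numbered libraries correlated at 0.14, 0.47 and 0.63, so pairs were tried, but only as an alternative. The main nej fit and the nej results above treat the libraries as unpaired, except where a block is named. In the paired edgeR fit no insertion was called, and 69 in place of 26 had an unadjusted p under 0.05. The lowest adjusted p of an insertion in nej was 0.184 with pairs and 0.968 without.

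Insertions were named by a rule: the 10 with the highest CPM, the 5 with the highest counts per kb, the 3 with the lowest p per comparison, those called by DESeq2, those in exons of the targets, and up to 3 on each side of the threshold. FBti0019430, FBti0018911, the alike copies of mdg3 and diver, insertions in highly counted exons and the families singled out were chosen after their values were seen. Members and lists were chosen with earlier results of these data known, and the family classes were assigned by hand. The closing section gives the effect of the alternatives.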

Additional observations from a re-analysis of the deposited data

How the results depend on the processing

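The share of counts on the insertions kept its direction in 13 of 14 alternatives for dGcn5, 9 of 14 for Elp3 and 14 of 14 for nej. None could give a p under 0.1. The smallest possible p of the exact permutation test is 0.1 for 3 libraries against 3 and 0.2 with 1 left out. Leaving out each library gave a difference from yellow of -0.518 to 0.032 percentage points for dGcn5, -0.425 to 0.275 for Elp3 and 0.0032 to 0.595 for nej. The Elp3 difference of -0.081 also reversed to 0.050 when only the highest copy of each family was used and to 0.044 without the 3S18 family, alternatives chosen after seeing the data, and the cause was not tested. No alternative of the edgeR fit called an insertion, including no filter, other size factors, all 12 libraries in 1 fit and families summed to 1 row (also chosen after seeing the data). DESeq2 called 4 for dGcn5 and 1 for Elp3. The replicate block, sign flips over pairs, gave p = 0.25 for the share in nej, the smallest it allows, and p = 0.75 for dGcn5 and Elp3 (both exact permutation tests). It called 0 insertions in each comparison. Same-numbered dGcn5 and yellow libraries correlated at -0.12, 0.20 and -0.01, and Elp3 and yellow libraries at -0.64, 0.72 and -0.10. These values differ in sign, and so few cannot show whether the numbers pair the libraries, which the labels do not say. The 976 insertions with 10 counts in 3 libraries became 469 when all 12 libraries were required and 954 to 968 with 1 library left out. The 382 insertions sharing an exonic base became 213 with at least 50% of the insertion in exons, 207 on the same strand and 2636 with gene spans. Depth limits the rows near the threshold, where 1 count more or less in 1 library moves an insertion across it.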
